A study of Danio rerio with 17 samples.

Results

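Sox and T-box genes were followed across the sorted mural and endothelial cells of zebrafish embryos. The members were the genes whose symbol begins with sox or tbx followed by a digit, after sox7, sox18, sox9a, sox10 and tbx20 had been left out, and there were 39 of them among 30220 genes. Of these, 23 were Sox genes and 16 were T-box genes. The rule on symbols also took in sox2ot, a noncoding RNA gene, so that 38 members encode transcription factors.

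The mural cells of the acta2 line were sorted from Tg(acta2:egfp) embryos at 4 days post fertilization, as 3 libraries of reporter-positive and 3 of reporter-negative (non-mural) cells. The double-reporter line, Tg(acta2:mcherry);(foxc1b:egfp), was also sorted at 4 days and gave 2 positive (mural) and 3 negative libraries, with the gates not given in the sources used here. Endothelial cells came from the Tg(kdrl:mcherry) line at 5 days, as 3 positive (endothelial) and 3 negative libraries. The transgenes read the promoters of acta2, which encodes smooth muscle actin, of foxc1b, a forkhead factor gene, and of kdrl, which encodes a receptor for vascular endothelial growth factor. Cells of the kdrl line went through fixation ahead of the sort and a different library kit, so stage, fixation, kit and line cannot be told apart between the kdrl line and the others. The negative cells of each line are a mix of other cell types of the dissociated embryo. Without the gates it is not known where cells with a single reporter of the double-reporter line went. The labels do not say that replicates came from separate clutches, so p-values measure the spread between these libraries only.

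Sox proteins bind DNA through a high-mobility-group box that bends it, and they usually act with a partner factor. The SoxB1 genes are known for keeping neural progenitors undifferentiated, SoxB2 proteins act mostly as repressors in the same tissue, SoxD proteins lack a transactivation domain of their own and are known from cartilage, and SoxF genes act in endoderm and endothelium. T-box proteins share a DNA-binding domain first described in brachyury and pattern mesoderm, heart, fins and pharyngeal arches; Tbx18 marks epicardium and mural cell precursors in mouse.

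The sorts were checked with the reporter genes and with marker lists. The acta2 gene had between 16196 and 29672 normalized reads (reads divided by the size factor of the library) in positive cells of the acta2 line, against 121 to 147 in negative cells, and kdrl had 5389 to 19330 in positive cells of the kdrl line, against 232 to 305 in negative cells. In the double-reporter line foxc1b had 744 and 1977 in positive cells, against 266, 415 and 215 in negative cells. In the acta2 line, sorted without a foxc1b reporter, foxc1b was not higher in positive cells, with 2199, 905 and 693, against 5294, 3313 and 1655 in negative cells. Of 12 smooth muscle markers 10 rose in the acta2 line and 3 were called higher in the double-reporter line, and of 16 endothelial markers all 16 rose in the kdrl line. These lists hold acta2 and kdrl themselves, so the counts are not wholly separate from the reporter values. Of 8 epidermis markers 3 also rose in the kdrl line. Their sums were 413219, 47558.6 and 361172 normalized reads in its positive libraries, against 15909.9, 32476.9 and 52689.6 in its negative ones. The part of epidermis in the values of the kdrl line was not tested. The libraries held between 10474235 and 40868765 reads. The second negative library of the acta2/foxc1b line stood apart: its mean correlation with its 2 replicates was 0.719, where theirs were 0.831 and 0.834, and its summed epidermis markers were the highest of all 17 libraries at 2.57355e+06 normalized reads. Fold changes of the acta2/foxc1b sort that moved by more than 1.5 times without it are given both ways for the genes described below.

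SoxB genes and sox2ot gave most of the changes in the acta2 line. Of the 34 members that could be tested there, 8 were lower and 2 higher in positive cells (limma-trend, Benjamini-Hochberg adjusted p under 0.05 over all genes tested), on a background of 7.0% of 20582 genes called, 3.75% lower and 3.26% higher. All 6 SoxB1 genes and 1 of 3 SoxB2 genes fell, and the eighth was sox2ot. Of the 34 tested members, 12 passed the filter on low values through the negative libraries alone. These hold sox1a, sox1b, sox19b, sox21b and sox2ot, so the share of lower members among those tested depends in part on the filter. Without the filter limma called the same 8 members lower, with 1294 calls among 29022 genes. All positive libraries lay below all negative ones for 15 tested members (15.7% of all genes tested) and above them for 4 (15.1%). DESeq2 called 4 members higher and 11 lower (15% of genes with an adjusted p called). The authors' deposited table called 1 higher (2.43% of genes) and 9 lower (3.22%). In these bulk libraries, fewer cells of a type and less RNA per cell cannot be told apart.

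Among the SoxB1 genes, sox2, a factor of pluripotent cells and neural progenitors, had 71.9, 211 and 51.4 normalized reads in positive cells of the acta2 line, against 1572, 2138 and 1772 in negative cells. The groups did not overlap. Its level was 112 ± 87.1 in positive and 1827 ± 287 in negative cells (SD, n = 3 each), a log2 fold change of -4.28 (SE 0.50, limma adjusted p = 0.00474). On the log2(value + 1) scale used for all fold changes here, this is 19.4-fold lower.

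Its close relative sox3, which acts in the same progenitors, had 62.5, 202 and 21.0 normalized reads in positive cells, against 1850, 796 and 971 in negative cells (log2 fold change -4.10, SE 0.73, limma adjusted p = 0.0147). sox19a, expressed in the early neural plate of zebrafish, had 230, 115 and 115 in positive cells, against 469, 662 and 880 in negative cells. Its change was the smallest of the SoxB1 genes, with a log2 fold change of -2.15 (SE 0.41, limma adjusted p = 0.0191). Its paralog sox19b, known for its maternal role at the start of zygotic transcription in zebrafish, had 4.69, 20.9 and 25.2 in positive cells, against 131, 333 and 364 in negative cells, with a log2 fold change of -4.09 (SE 0.72, limma adjusted p = 0.0144).

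The sox1 pair, known from lens and neural tissue, fell to a few reads. sox1a had 0, 9.30 and 2.1 normalized reads in positive cells of the acta2 line, against 81.0, 94.1 and 59.1 in negative cells (log2 fold change -4.61, SE 0.93, limma adjusted p = 0.0226). sox1b had 1.56, 16.3 and 8.39 in positive cells, against 82.8, 123 and 87.8 in negative cells (-3.70, SE 0.80, limma adjusted p = 0.0288). The positive values of both genes rest on at most 14 reads a library.

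Of the SoxB2 genes, sox21b, a repressor gene of the neural tube, was close to 0 in positive cells of the acta2 line, with 1, 2 and 3 reads (1.56, 2.32 and 3.15 normalized), against 170, 367 and 173 normalized reads in negative cells. Its log2 fold change was -6.08 (SE 0.64, limma adjusted p = 0.00389), and with so few reads this size moved between -6.62 and -3.16 over the alternative settings. sox21a had 0, 5.81 and 8.39 in positive cells, against 23.7, 50.5 and 55.7 in negative cells, and missed the threshold (limma adjusted p = 0.0773), while it was called lower in DESeq2 (adjusted p = 0.0113), with pseudocount 8, quantile or TMM scaling and with library weights. sox14, a gene of interneurons, had 0, 31.4 and 3.15 in positive cells, against 16.4, 94.1 and 81.9 in negative cells, with groups that overlapped (limma adjusted p = 0.152). Of the members called in the acta2 line, sox2 and sox21b alone kept the call under every alternative setting and without each of the 6 libraries in turn. Without the second or the third negative library, sox19a, sox19b, sox1a, sox1b and sox3 lost it, the last 3 of them also without the first negative library, and sox19a, sox1a and sox1b also without the third positive library, with limma adjusted p up to 0.128 over all settings. In the single fit over both mural lines sox19a and sox1b lost it too.

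The noncoding gene sox2ot, which overlaps sox2 in the RefSeq annotation of build GRCz12tu, had 3.13, 12.8 and 16.8 normalized reads in positive cells of the acta2 line, against 510, 123 and 227 in negative cells (log2 fold change -4.60, SE 0.76, limma adjusted p = 0.0120). It lost the call without the third negative library and in a fit over both mural lines, with limma adjusted p up to 0.0601 over all settings. Whether the authors counted by strand is not given in the sources used here, so reads of sox2ot and sox2 could not be told apart where the genes overlap, and sox2ot is not a separate line of evidence.

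**Figure D1:**
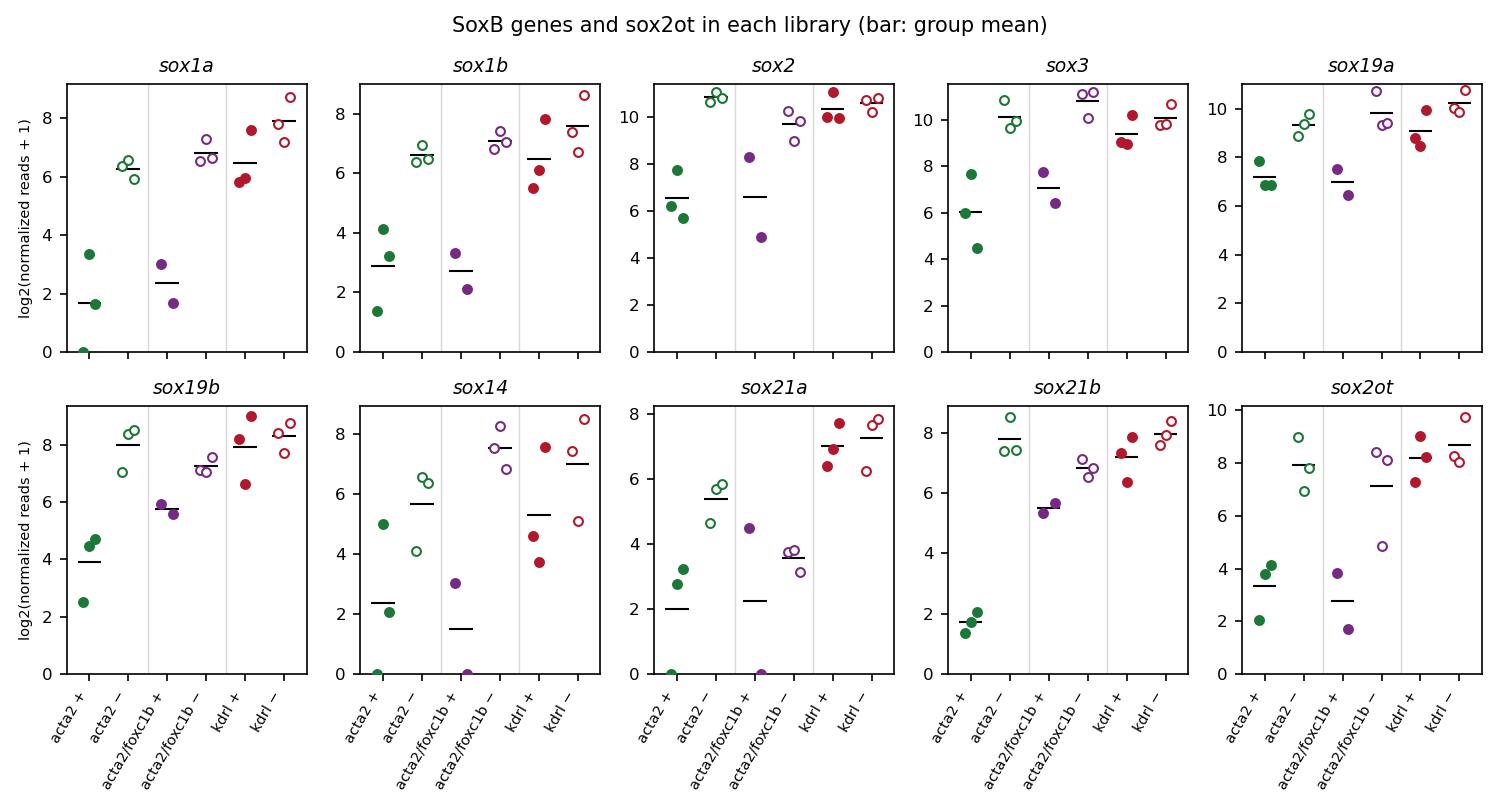
Normalized read counts of the 9 SoxB genes and sox2ot in each of the 17 libraries, on the log2(value + 1) scale, with filled points for positive cells, open points for negative cells and a bar for the group mean. In the acta2 line all positive libraries lie below all negative ones for each gene except sox14, whereas in the kdrl line the groups overlap for every gene shown.

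In the acta2/foxc1b line no member was called by limma, on a background of 0.0271% (6 of 22116 genes), and none by edgeR. Of its 37 tested members 15 had an unadjusted p under 0.05, where 11.4% of all genes tested had one. Of the 37, 11 passed the filter through the negative libraries alone, sox1a, sox1b, sox14 and sox2ot among them. The share with such a p therefore depends in part on the filter as well. DESeq2 called 5 higher and 7 lower members there (7.89% of genes with an adjusted p called), and the authors' deposited table called 6 higher (5.17% of genes) and 7 lower (6.31%). Both called sox5, sox6, tbx5a, tbx15 and tbx18 higher, and the authors' table also tbx2b. The lower members of both were sox1a, sox1b, sox3, sox13, sox14, sox19a and sox2ot. Without the second negative library, limma called sox6 higher and sox2ot and sox3 lower, on a background of 3.76%.

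The SoxB values in this line are given with that limit. sox3 had 211 and 84.5 normalized reads in positive cells of the acta2/foxc1b line, against 2236, 1088 and 2321 in negative cells (log2 fold change -3.73, SE 0.67, limma adjusted p = 0.112). sox2 had 316 and 28.9 in positive cells, against 1234, 507 and 892 in negative cells. For sox2 the pair of positive libraries differed more from each other, on the log scale, than the negative libraries did. sox19a had 181 and 87.8 in positive cells, against 1691, 642 and 690 in negative cells. sox19b had 60.6 and 46.7 in positive cells, against 139, 132 and 189 in negative cells.

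For sox1a, sox1b and sox14 the positive values rested on at most 10 reads a library. sox1a had 7.13 and 2.22 normalized reads in positive cells of the acta2/foxc1b line, against 91.3, 156 and 99.0 in negative cells, and sox1b had 8.91 and 3.33, against 111, 171 and 132. sox14 had 7.13 and 0, against 186, 307 and 115, which gave the lowest log2 fold change of a member in this line, -6.05 (SE 1.17, limma adjusted p = 0.127). sox21b was further from 0 here: it had 40.1 and 50.02 in positive cells, against 139, 91.1 and 113 in negative cells, a log2 fold change of -1.31 (SE 0.73, limma adjusted p = 0.594). sox2ot had 13.4 and 2.22 in positive cells, against 346, 27.6 and 280 in negative cells, a log2 fold change of -4.37, and -5.52 without the second negative library. Positive and negative libraries of this line overlapped for sox21a alone among the SoxB genes, with 21.4 and 0 in positive cells, against 12.4, 13.0 and 7.76 in negative cells.

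In the kdrl line no SoxB gene was called by limma without the replicate block, by edgeR or by DESeq2, 2 of 9 had an unadjusted p under 0.05 (23.4% of all genes), and the median log2 fold change of the 9 genes was -0.79, where that of all 24903 genes tested was -0.05. sox2 had 1015, 2145 and 995 normalized reads in positive cells of the kdrl line, against 1673, 1185 and 1787 in negative cells, and the groups overlapped (log2 fold change -0.24, SE 0.39, limma adjusted p = 0.735). sox3 had 522, 493 and 1194 in positive cells, against 879, 892 and 1629 in negative cells, and sox19b had 290, 97.0 and 515, against 342, 210 and 430. The noncoding sox2ot had 155, 521 and 300 in positive cells, against 309, 265 and 858 in negative cells. Its groups overlapped as well (log2 fold change -0.51, SE 0.55, limma adjusted p = 0.593).

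Libraries of the same replicate number deviated together in the kdrl line, the second pair only weakly. With the number as a block 3 SoxB genes were called lower (background 6.41% lower and 7.08% higher). These were sox19a, with 444, 352 and 997 normalized reads in positive and 1049, 939 and 1759 in negative cells (log2 fold change -1.16, blocked limma adjusted p = 0.0253, unblocked 0.154), and sox1a, with 55.8, 61.5 and 195 in positive and 225, 145 and 423 in negative cells (-1.44, blocked limma adjusted p = 0.0273, unblocked 0.161). The third was sox14, with 23.5, 12.3 and 188 in positive and 173, 33.5 and 362 in negative cells (-1.72, blocked limma adjusted p = 0.0440, unblocked 0.340). Without the block but also without the third positive library, sox19a and sox1a were called lower too. In each of the 3 genes the third positive and the third negative library were the highest of their groups. The other members of the group, sox1b with 44.5, 68.3 and 225 in positive and 168, 104 and 390 in negative cells, sox21b with 159, 82.0 and 234 in positive and 195, 242 and 339 in negative cells, and sox21a with 82.2, 118 and 209 in positive and 73.9, 200 and 226 in negative cells, were not called in either fit.

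Markers of several other cell types moved beside the SoxB genes. The summed level of the 9 SoxB genes was 372.2, 614.7 and 238.1 normalized reads in positive cells of the acta2 line, against 4395.2, 4656.8 and 4444.4 in negative cells. The sum of 30 neuron, neural progenitor, glia and retina markers, none of them a member, was 5279.2, 11019.8 and 4574.9 in the same positive libraries, against 132373.5, 51823.7 and 68023.7 in the negative ones. The second positive library was the highest of its group for both sums. Of those lists 5 of 10 neuron, 7 of 9 progenitor and glia and 8 of 11 retina markers fell in the acta2 line, and no marker of these 3 lists was at 0 in all libraries of a group. All 9 lens markers tested also fell there, with lens sums between 750.063 and 4967.79 in positive libraries, against 31658.8 to 43337.9 in negative ones, and the lens marker crygm3 was at 0 in every negative library. Of 7 erythroid markers tested 5 fell, with sums between 276.784 and 566.481, against 1638.87 to 9596.34. The part of these cell types in the SoxB result was not tested.

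Across the acta2/foxc1b line the SoxB sum was 853.5 and 303.4 in positive cells, against 5839.4, 3107.8 and 4558.1 in negative cells, and the marker sum was 13736.5 and 3371.3, against 120514.4, 10517.2 and 151670.3. The second negative library, which stood apart, had the lowest value of its group for both. In the kdrl line the SoxB sum was 2635.7, 3429.4 and 4752.9 in positive cells, against 4777.2, 3949.7 and 7345.1 in negative cells, and the marker sum was 25234.5, 72489.5 and 43888.8, against 414331.4, 245211.4 and 179814.6. The groups of the kdrl line overlapped for the SoxB sum and not for the marker sum. Within each of the 3 same-numbered pairs both sums were lower in positive cells. Of the 3 lists in the marker sum, only retina did not overlap (3319.99 to 17122.6 in positive, 54255.5 to 354979 in negative libraries). Neuron sums (12907.1 to 42811.6, against 30211.6 to 90023.6) and progenitor and glia sums (8109.18 to 18573.3, against 14161 to 35535.5) overlapped. In the second pair the neuron sum was higher in positive cells. There 0 of 10 neuron, 2 of 9 progenitor and glia and 9 of 11 retina markers fell. Lens sums of the kdrl line were between 342.899 and 652.283 in positive libraries, against 592.868 to 1841.54 in negative ones.

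The SoxD genes did not move as a group. sox5, which acts with sox6 and sox9 genes in cartilage, had 10254, 9622 and 9130 normalized reads in positive cells of the acta2 line, against 3594, 3986 and 4539 in negative cells. All positive libraries lay above all negative ones, and the level was 9668 ± 563 in positive and 4040 ± 475 in negative cells (SD, n = 3 each), a log2 fold change of 1.26 (SE 0.26, limma adjusted p = 0.0235). With the replicate number as a block the adjusted p was 0.0518, although the numbers of this line did not pair the libraries. The call was also lost without each of 4 of the 6 libraries, namely the second and the third of both groups, and in the single fit over both mural lines, with sizes between 1.06 and 1.35 over all settings.

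sox5 in the acta2/foxc1b line had 12378 and 11873 normalized reads in positive cells, against 3801, 2046 and 3419 in negative cells (log2 fold change 2.02, SE 0.58, limma adjusted p = 0.254). The kdrl line gave 1227, 2531 and 1728 in positive cells, against 3457, 3272 and 3136 in negative cells, so that all positive libraries lay below all negative ones, without a call (-0.91, SE 0.36, limma adjusted p = 0.167). The difference of sort effects, the acta2 line minus the kdrl line, was 2.17 for sox5 (SE 0.43, limma adjusted p = 0.00787).

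sox6, a paralog of sox5 known in zebrafish for repressing slow-fibre genes in fast muscle, had 3068, 3855 and 2177 normalized reads in positive cells of the acta2 line, against 1385, 2218 and 2311 in negative cells, and the groups overlapped (log2 fold change 0.62, SE 0.33, limma adjusted p = 0.291). It had 5540 and 5339 in positive cells of the acta2/foxc1b line, against 1418, 1377 and 1277 in negative cells, and no overlap (2.0, SE 0.50, limma adjusted p = 0.198). The kdrl line gave 385, 154 and 363 in positive cells, against 327, 424 and 489 in negative cells. Skeletal muscle markers, beside which sox6 stands in the double-reporter line, summed to between 223442 and 399332 in its positive libraries, against 12808.6 to 39595.3 in its negative ones, and to between 18212.4 and 30541.6 in positive cells of the acta2 line, against 25230 to 44750.3 in negative cells; their part in the sox6 values was not tested.

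sox13, the remaining SoxD gene, known from T cells in mouse, was the only member called higher in positive cells of the kdrl line. It had 1979, 2669 and 2541 normalized reads in positive cells of the kdrl line, against 583, 712 and 1136 in negative cells, with no overlap. The level was 2396 ± 367 in positive and 810 ± 290 in negative cells (SD, n = 3 each), a log2 fold change of 1.61 (SE 0.35, limma adjusted p = 0.0279), on a background of 5.96% called (3.17% higher). The blocked adjusted p was 0.00858. The authors' deposited table also called sox13 higher (6.66% of genes) and tbx15 lower (6.62%), and no other member. Over all 39 members, positive libraries lay wholly above negative ones for 3 (15.3% of genes) and wholly below for 5 (14.2%). The unblocked call was lost without each library but the third negative one, with adjusted p up to 0.102.

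In the mural lines sox13 lay on the other side. It had 79.8, 202 and 61.9 normalized reads in positive cells of the acta2 line, against 211, 220 and 321 in negative cells (log2 fold change -1.29, SE 0.51, limma adjusted p = 0.162). It had 179 and 56.7 in positive cells of the acta2/foxc1b line, against 549, 1179 and 598 in negative cells (-2.84, SE 0.73, limma adjusted p = 0.205). The acta2 minus kdrl difference was -2.90 (SE 0.60, limma adjusted p = 0.00941). Positive and negative libraries did not overlap in any of the 3 lines. In the RefSeq annotation the sox13 gene model overlaps 14 other genes, among them protein-coding ones, and how the authors assigned reads there is not given in the sources used here.

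**Figure D2:**
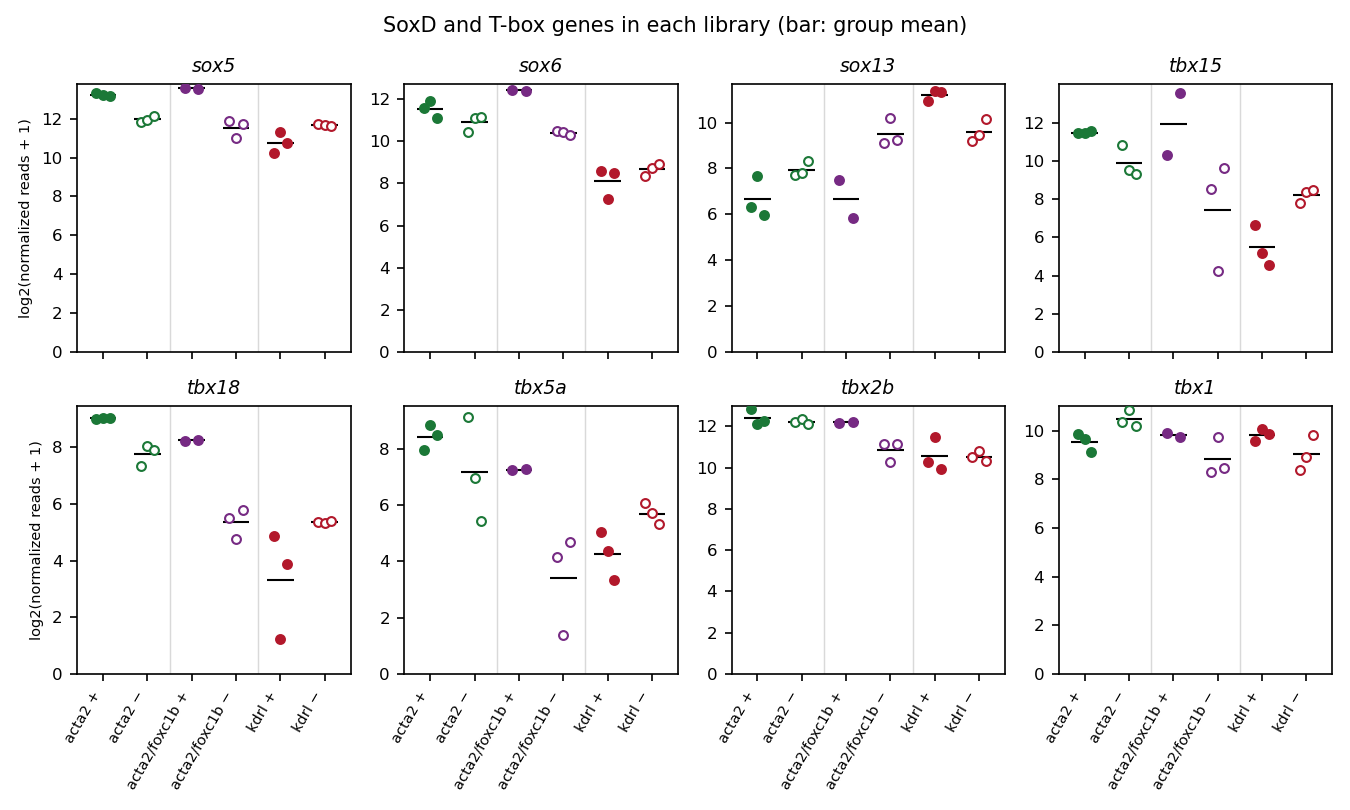
Normalized read counts of the 3 SoxD genes and 5 T-box genes in each library, on the log2(value + 1) scale, with filled points for positive cells, open points for negative cells and a bar for the group mean. sox5 and tbx15 lie higher in positive cells of both mural lines and lower in positive cells of the kdrl line, and sox13 shows the opposite order.

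The Tbx1 group held the T-box genes with calls. tbx15, known from the craniofacial and limb skeleton, was the only T-box member called in the acta2 line, with 2802, 2805 and 2977 normalized reads in positive cells, against 1830, 733 and 636 in negative cells (log2 fold change 1.59, SE 0.40, limma adjusted p = 0.0476). This call stands at the threshold: it was lost in edgeR, under quantile normalization, without the filter, with the block and in a fit over both mural lines, and without each library but the first negative one, with adjusted p up to 0.580. tbx15 in the acta2/foxc1b line had 1251 and 11826 in positive cells, against 363, 17.9 and 779 in negative cells, with the positive libraries far apart (4.46, SE 1.66, limma adjusted p = 0.375). Without the second negative library this log2 fold change was 2.85 (limma adjusted p = 0.177).

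In the kdrl line tbx15 fell. It had 99.8, 35.5 and 22.7 normalized reads in positive cells, against 217, 328 and 359 in negative cells, with no overlap (log2 fold change -2.74, SE 0.54, limma adjusted p = 0.0179, blocked 0.0147, background 2.79% lower). The call was lost without the first or the second negative library, with adjusted p up to 0.0696. The acta2 minus kdrl difference was 4.33 (SE 0.70, limma adjusted p = 0.0021), the largest of a member in that direction. Cartilage markers, of which 5 of 7 fell in the kdrl line, summed to between 7132.75 and 8407.28 in its positive libraries, against 28877.5 to 68733.9 in its negative ones. In the mural lines they lay between 82619.9 and 187838 in positive libraries of the acta2 line, against 47697.4 to 92799.4 in negative ones, with 1 of 7 markers called higher, and between 76893 and 209246 in positive libraries of the acta2/foxc1b line, against 33864.3 to 50514.6 in negative ones, with none called by limma. The part of cartilage cells in the tbx15 and sox5 values was not tested.

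tbx18, the epicardial gene, was close between replicates of positive cells in both mural lines. In positive cells of the acta2 line it had 513, 528 and 517 normalized reads, against 159, 260 and 239 in negative cells, which missed the threshold (log2 fold change 1.27, SE 0.33, limma adjusted p = 0.0542). The acta2/foxc1b line gave 300 and 301 in positive cells, against 44.1, 26.0 and 54.3 in negative cells (2.89, SE 0.74, limma adjusted p = 0.201). The kdrl line gave 27.9, 1.37 and 13.6 in positive cells, against 39.6, 38.8 and 41.6 in negative cells (-2.04, SE 0.90, limma adjusted p = 0.206), and its second positive value rests on 2 reads. The groups did not overlap in any line, higher in positive cells of both mural lines and lower in those of the kdrl line, where tbx18 passed the filter through the negative libraries alone.

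The other members of the group were tbx1, a regulator of pharyngeal arch and cardiac outflow development, and tbx22, known from the palate. tbx1 had 932, 815 and 560 normalized reads in positive cells of the acta2 line, against 1319, 1877 and 1186 in negative cells. In the acta2/foxc1b line it had 975 and 856, against 317, 870 and 353, and in the kdrl line 771, 1086 and 931, against 333, 486 and 905. It lay lower in positive cells of the acta2 line without a call (log2 fold change -0.93, limma adjusted p = 0.120), and the groups of the other lines overlapped. tbx22 stayed at or below 107 normalized reads in every library, with log2 fold changes between -1.96 and 0.28 and no call by limma in any of the 3 sorts. In the acta2 line all its positive libraries lay below all negative ones and DESeq2 called it lower (-1.98, DESeq2 adjusted p = 0.0114, limma 0.0793). In the acta2/foxc1b line its limma log2 fold change of 0.28 became -1.05 without the second negative library, and without it the pooled fit of both mural sorts called tbx22 lower (-1.59, limma adjusted p = 0.0488).

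Pooling both mural sorts in 1 fit with the line as a term, which shares its libraries with the sorts above, called 13 of 38 members, 3 higher and 10 lower (background 8.77%, 4.36% higher and 4.41% lower). Of the lower ones, sox1a, sox1b and sox14 reached the filter through the negative libraries alone, so the share of lower members depends in part on the filter. Without the filter limma called the same 13 members, with 1800 calls among 29562 genes. The higher ones were sox5 (log2 fold change 1.60, SE 0.28, limma adjusted p = 0.00401), tbx18 (1.99, SE 0.39, limma adjusted p = 0.00766) and sox6 (1.23, SE 0.32, limma adjusted p = 0.0310). The lower ones were the 6 SoxB1 genes, sox2ot (-4.50, SE 0.76), sox14 (-4.54, SE 0.98, limma adjusted p = 0.0125, but 0.0821 in edgeR), sox21b (-3.96, SE 0.79, limma adjusted p = 0.00814) and sox13 (-1.98, SE 0.48, limma adjusted p = 0.0220). tbx15 was not called in the pool (2.87, SE 0.91, limma adjusted p = 0.0691), and was without the second negative library of the acta2/foxc1b line (2.1, limma adjusted p = 0.0181). Without the second negative library of the acta2/foxc1b line 17 members were called, 5 higher and 12 lower, on a background of 15.7%. sox6 lost the pooled call without each of 7 of the 11 libraries, 3 of the acta2 line and 4 of the double-reporter line, and under quantile normalization and the block, with adjusted p up to 0.106 over all settings. sox13 lost it without each of 3 libraries, namely the third negative and the third positive library of the acta2 line and the second positive library of the double-reporter line, and in edgeR and with the block, with adjusted p up to 0.0895.

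**Figure D3:**
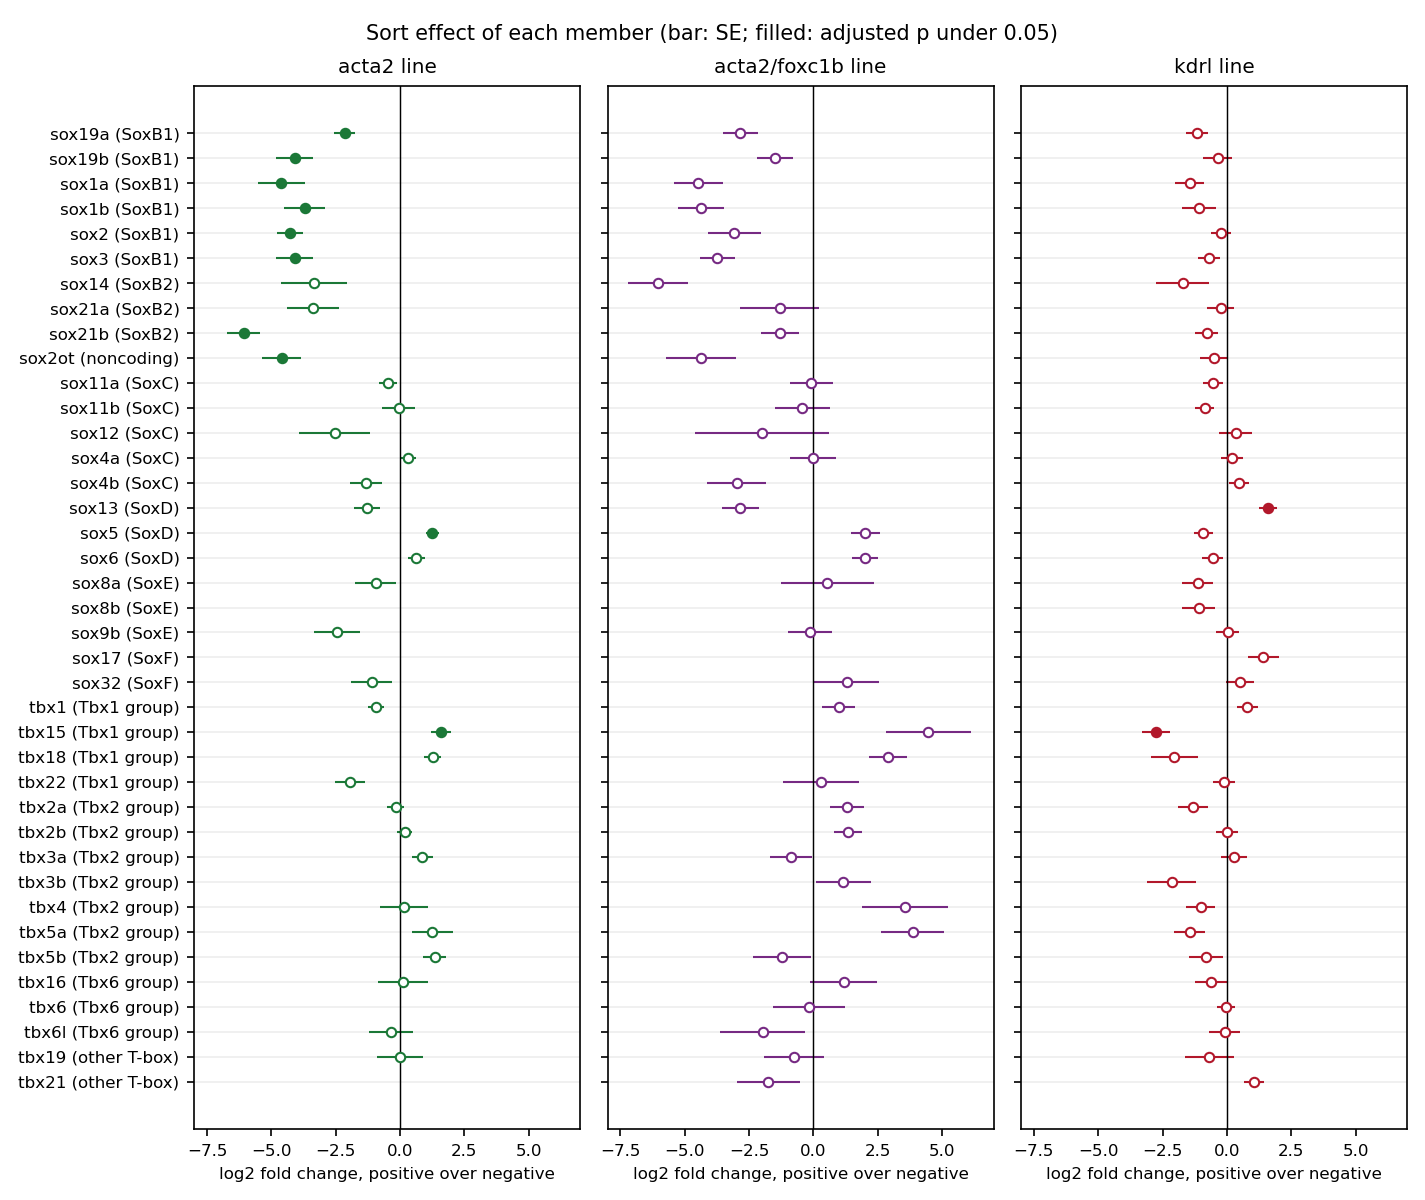
Log2 fold change of each member, positive over negative cells, in the 3 sorts, with bars for the SE and filled points for an adjusted p under 0.05 (limma-trend). Filled points in the acta2 panel are 7 SoxB genes and sox2ot on the lower side and sox5 and tbx15 on the higher side, the acta2/foxc1b panel has none, and the kdrl panel has sox13 higher and tbx15 lower.

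No gene of the Tbx2 group, which patterns heart and fins, was called in any comparison by the main limma fit or by edgeR. Some limma alternatives called tbx5a higher, among them library weights in the acta2 line and quantile scaling in the pool. An unadjusted p under 0.05 was found for 1 of 6 in the acta2 line (24.1% of all genes) and 2 of 7 in the acta2/foxc1b line (11.4%). In the kdrl line it was found for 3 of 7 (23.4%), namely tbx2a, tbx3b and tbx5a, all lower in positive cells. Of these, tbx3b and tbx5a passed the filter through the negative libraries alone, so this count depends in part on the filter. DESeq2 called 1 gene higher in each mural line, where the shares of all genes it called are given above. tbx2b, a gene of the atrioventricular canal, has the largest mean normalized read count of the group, which is not corrected for length, with 7260, 4503 and 4930 normalized reads in positive cells of the acta2 line, against 4809, 5213 and 4440 in negative cells (log2 fold change 0.18, SE 0.29, limma adjusted p = 0.747). In the acta2/foxc1b line it had 4636 and 4761 in positive cells, against 2263, 1233 and 2304 in negative cells (1.34, SE 0.56, limma adjusted p = 0.434), and in the kdrl line 1229, 2850 and 981, against 1452, 1792 and 1270. Groups overlapped in the acta2 and kdrl lines and not in the double-reporter line.

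In the acta2/foxc1b line 5 of the 7 genes of the group had all positive libraries above all negative ones, where 14.8% of genes tested did. Among these, tbx3b passed the filter through the positive libraries alone, so the count depends in part on the filter. The authors' deposited table called 2 genes of the group higher there, tbx2b and tbx5a (5.17% of genes). tbx5a, the heart and pectoral fin gene, had 150 and 156 normalized reads in positive cells, against 17, 1.63 and 24.6 in negative cells (log2 fold change 3.85, SE 1.22, limma adjusted p = 0.299, and 2.84 without the second negative library). In the acta2 line it had 247, 464 and 355 in positive cells, against 554, 123 and 42.2 in negative cells, which overlapped. tbx5a was not called in the pool of both mural sorts (log2 fold change 2.41, limma adjusted p = 0.0742). Without the second negative library of the acta2/foxc1b line it was (1.89, limma adjusted p = 0.0476). tbx4, the hindlimb and pelvic fin gene and the neighbour of tbx2b in RefSeq, had 171 and 68.9 in positive cells of the acta2/foxc1b line, against 34.0, 0 and 22.0 in negative cells (3.56, SE 1.66, limma adjusted p = 0.497, and 1.95 without the second negative library). Cardiac muscle markers stood beside this group, with sums between 11554.7 and 21758.3 normalized reads in positive libraries of the acta2/foxc1b line, against 1194.81 to 1759.65 in negative ones, while none of the 7 was called by limma. Skeletal muscle sums, given with sox6, were also higher there, and their part in these values was not tested.

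The remaining genes of the group, tbx2a, tbx3a, tbx3b and tbx5b, had log2 fold changes between -2.15 and 1.34 over the 3 sorts. tbx5b had 367, 175 and 222 normalized reads in positive cells of the acta2 line, against 131, 63.7 and 104 in negative cells, with no overlap and no call by limma (1.34, SE 0.46, limma adjusted p = 0.119), and it is the gene of the group that DESeq2 called there (DESeq2 adjusted p = 0.0462). tbx3b did not reach the filter in that line.

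SoxC genes, which act in neural and mesenchymal progenitors, were not called in the sort of any single line by limma, edgeR or DESeq2. In the pool of both mural sorts DESeq2 called sox4b lower (-1.74, DESeq2 adjusted p = 0.0198, limma 0.0635). An unadjusted limma p under 0.05 was found for 0, 1 and 1 of the 5 in the acta2, acta2/foxc1b and kdrl lines. The shares of all genes there were 24.1%, 11.4% and 23.4%. The gene of the acta2/foxc1b line, sox4b, passed the filter through the negative libraries alone. sox11a, with the largest mean normalized read count of the group, had 18451, 8701 and 8275 normalized reads in positive cells of the acta2 line, against 16621, 14874 and 14412 in negative cells. It had 7017 and 4093 in positive cells of the acta2/foxc1b line, against 12604, 2339 and 6132, and 3060, 2012 and 1581 in positive cells of the kdrl line, against 4187, 2244 and 3170. Groups overlapped in all 3 lines, with log2 fold changes of -0.47 (SE 0.36), -0.08 (SE 0.82) and -0.54 (SE 0.39). Without the second negative library of the acta2/foxc1b line the value there was -0.71. The others, sox4a, sox4b, sox11b and sox12, had log2 fold changes between -2.99 and 0.46. Without that library the acta2/foxc1b value of sox12 went from -1.99 to -4.36 and that of sox4a from -0.03 to -0.90.

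Among the SoxE genes, sox9b, a gene of cartilage and glia, had 7.82, 36.0 and 23.1 normalized reads in positive cells of the acta2 line, against 353, 93.3 and 37.1 in negative cells. The first negative library was the highest, and the fold change of -2.45 (SE 0.89) missed the threshold (limma adjusted p = 0.134), while the authors' deposited table called sox9b lower there. Its values were 38.3 and 27.8 in the acta2/foxc1b line, against 35.6, 39.0 and 33.0, and in the kdrl line 81.2, 45.1 and 84.0, against 67.8, 79.5 and 52.6. sox8a and sox8b had at most 79.3 normalized reads in any library, and sox8b reached the filter in the kdrl sort but not in the sort of either mural line alone. In the pool sox8b passed the filter through the negative libraries alone, with at most 2 reads in a positive library. Calls of it as lower therefore depend in part on the filter. DESeq2 called it lower in the pool (-3.21, DESeq2 adjusted p = 0.0265, limma 0.131). Limma called it lower there without the second negative library of the acta2/foxc1b line (-2.38, limma adjusted p = 0.0264), on a background of 15.7%. The log2 fold change of sox8a in the acta2/foxc1b line was 0.54, and -0.34 without the second negative library.

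The SoxF members rested on few reads. sox17, a gene of endoderm and, in mouse, of arterial endothelium, had 83.2, 67.6 and 29.5 normalized reads in positive cells of the kdrl line, against 23.6, 24.7 and 13.6 in negative cells, with no overlap and no call (log2 fold change 1.42, SE 0.59, limma adjusted p = 0.181). It did not reach the filter in the mural lines, where it had at most 16 reads. sox32, the zebrafish endoderm gene, from which 1 coding gene separates it in RefSeq, had 26.4, 61.5 and 43.1 in positive cells of the kdrl line, against 26.7, 30.0 and 29.7 in negative cells. In the acta2 line it had 6.25, 17.4 and 12.6, against 46.4, 12.4 and 27.9, and in the acta2/foxc1b line 24.1 and 17.8, against 12.4, 1.63 and 18.8. Its log2 fold change in the acta2/foxc1b line was 1.29, and 0.42 without the second negative library. In RefSeq the models of sox17 and sox32 both overlap another coding gene.

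The Tbx6 group of early mesoderm genes gave no call by limma, edgeR or DESeq2 in any sort, and none of its genes had an unadjusted p under 0.05. tbx6 had 107, 127 and 109 normalized reads in positive cells of the kdrl line, against 128, 109 and 115 in negative cells (log2 fold change -0.04, SE 0.35). In the mural lines it was lower, with 3.13, 3.49 and 6.29 in positive cells of the acta2 line, against 5.46, 22.5 and 5.91, and 11.6 and 4.45 in positive cells of the acta2/foxc1b line, against 27.1, 1.63 and 9.70, although the kdrl libraries were scaled apart from the others. tbx16, which directs mesoderm movement in gastrulation, and tbx6l had log2 fold changes between -1.98 and 1.17. Without the second negative library the acta2/foxc1b values went from 1.17 to 1.95 for tbx16 and from -1.98 to -3.20 for tbx6l. For tbx6 the value there went from -0.16 to -1.07.

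tbx21, the gene of T-bet in T helper and natural killer cells, had 120, 104 and 177 normalized reads in positive cells of the kdrl line, against 62.5, 70.6 and 53.5 in negative cells, with no overlap and no call (log2 fold change 1.06, SE 0.40, limma adjusted p = 0.147). Of 9 leukocyte markers 7 rose in that sort, and their sum was between 15805.7 and 50737.7 in positive cells, against 1080.57 to 4275.16 in negative cells; their part in the tbx21 and sox13 values was not tested. In the acta2 line tbx21 had 1.56, 1.16 and 3.15, against 1.82, 12.4 and 6.75, and it did not reach the filter. The acta2/foxc1b line gave 9.80 and 1.11, against 20.9, 17.9 and 9.06. tbx19, known from the mammalian pituitary, was at most 88.3 in any library and was not called.

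Relatives outside the symbol rule and partner factors stood beside the members. Of 11 such relatives the 10 tested in the acta2 line gave 1 higher, tbx20, a cardiac T-box gene (log2 fold change 3.18, SE 0.34, limma adjusted p = 0.00389), and 1 lower, eomesa, a T-box gene of neurons and mesendoderm (-4.88, SE 0.96, limma adjusted p = 0.0209). In the kdrl line the SoxF genes sox18 (5.27, SE 0.62, limma adjusted p = 0.00160) and sox7 (4.46, SE 0.51, limma adjusted p = 0.00136), which act in vascular development, rose, and sox10, a neural crest gene, fell (-1.65, SE 0.42, limma adjusted p = 0.0473). No relative was called in the acta2/foxc1b line.

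Of 25 partner factors tested in the acta2 line, 2 rose and 5 fell. Among them the eye and brain gene pax6a (log2 fold change -5.12, SE 0.74, limma adjusted p = 0.00749) and the neural POU genes pou3f3b (-2.10, SE 0.34) and pou3f1 (-2.98, SE 0.63) fell, and hand2, a heart and branchial arch factor, rose (2.13, SE 0.40, limma adjusted p = 0.0180). In the kdrl line 4 of 26 rose and 3 fell. There etv2, which specifies endothelium (6.08, SE 0.57, limma adjusted p = 0.000502), and gata5, a heart and endoderm factor (2.72, SE 0.46), rose, and the neural crest gene foxd3 (-2.38, SE 0.49) and pou3f3a (-2.24, SE 0.51) fell. None was called in the acta2/foxc1b line by limma.

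The sort effects of the acta2 and kdrl lines were set against each other in 1 fit over their 12 libraries. The difference was called for 8 of 39 members, 2 higher and 6 lower (background 6.11%, 2.80% higher and 3.31% lower), and DESeq2 called 13 (background 14.2%). The replicate number was also used as a block in both lines, although it was taken to pair the libraries of the kdrl line only. With it 10 were called (background 8.12%). This added tbx1 (-1.73, blocked limma adjusted p = 0.0398, unblocked 0.0664) and sox21a (-3.14, blocked limma adjusted p = 0.0481, unblocked 0.119) on the lower side. Without the block the difference was lower for sox21b (-5.29, SE 0.76, limma adjusted p = 0.00081), sox2ot (-4.09, SE 0.97, limma adjusted p = 0.0208), sox2 (-4.04, SE 0.65, limma adjusted p = 0.00195), sox19b (-3.73, SE 0.97, limma adjusted p = 0.0326), sox3 (-3.42, SE 0.89, limma adjusted p = 0.0346) and sox13, and higher for tbx15 and sox5. For sox13, sox5 and tbx15 the effects of the lines had opposite signs, whereas for the SoxB genes both were negative. tbx18 missed the threshold in limma with a difference of 3.31 (SE 0.98, limma adjusted p = 0.0603), while DESeq2 called it higher (DESeq2 adjusted p = 0.0145).

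**Figure D4:**
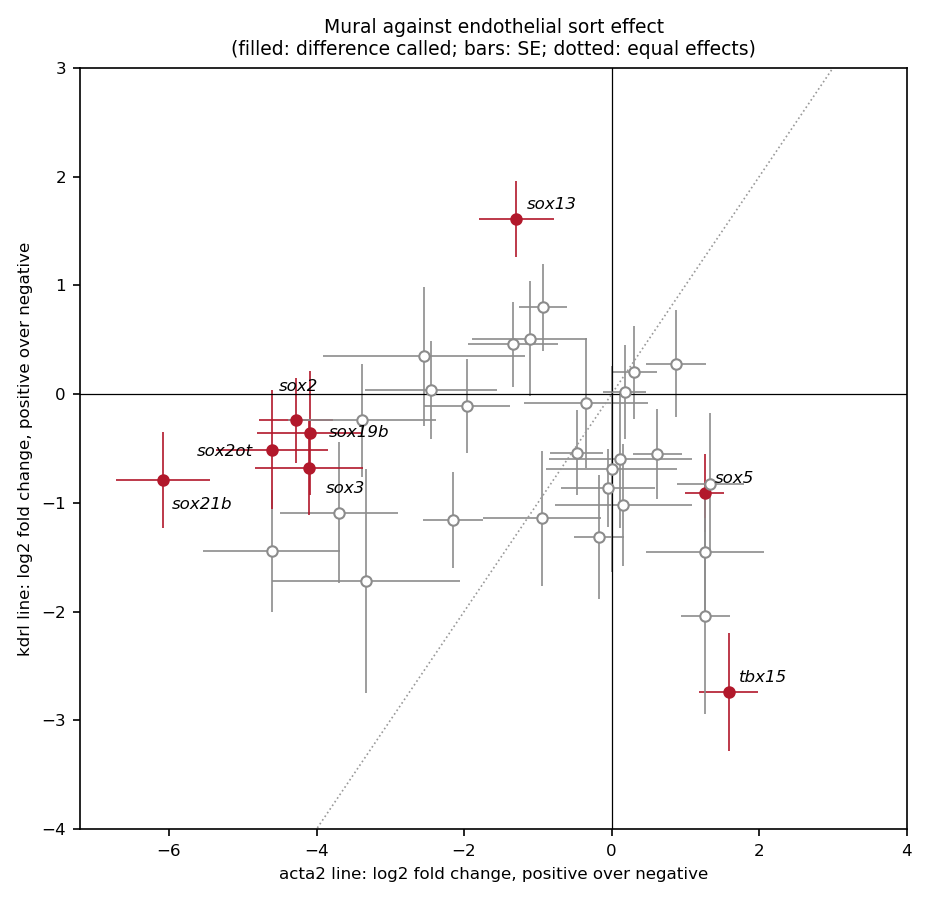
Log2 fold change of each member in the kdrl line against that in the acta2 line, positive over negative cells, for the 34 members tested in both, with bars for the SE, filled points where the difference of the effects was called, and a dotted line for equal effects. The called SoxB genes and sox2ot lie between -6.08 and -4.09 on the acta2 axis and between -0.79 and -0.24 on the kdrl axis, while sox5 and tbx15 lie at the lower right and sox13 at the upper left.

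Between the mural lines, the acta2/foxc1b sort effect minus that of the acta2 line was called for no member by limma or edgeR (background 0%), and 6 of 38 members had an unadjusted p under 0.05, where 4.99% of all genes did. DESeq2 called 1 of 38, sox21b, against 1.2% of genes with an adjusted p, with a limma difference of 4.77 (SE 0.93, limma adjusted p = 0.189).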

How the data were processed

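The submitters' processing notes name bcl2fastq 2.14, CASAVA 1.8.2, featureCounts 1.5.2, DESeq2 1.20.0 and the build GRCz11, and the sources used here give no aligner, annotation or strand setting. The deposited table has 1 signal value per gene and library, namely reads over a size factor, with the 11 mural-line libraries scaled together and the 6 of the kdrl line apart. In every library 100% of the values gave back whole reads within 0.1 read. The authors also deposited log2 fold changes, whose shrinkage is not stated, a p-value with its adjusted form, and a test statistic, taken here as a score and not used.

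Each fit was limma-trend on log2(value + 1), two-sided, over genes with a value of 10 or more in enough libraries to fill its smallest group, with Benjamini-Hochberg adjustment over all genes tested and a threshold of 0.05. Count tests with edgeR and DESeq2 on the recovered reads were alternatives, as were a pseudocount of 8, no filter, quantile and TMM scaling, library weights, the replicate block, a fit over both mural lines, and leaving out each library. The versions run here were limma 3.58.1, DESeq2 1.42.0 and edgeR 4.0.16 under R 4.3.3. Only the main limma fit and edgeR were run on simulated data, for the sorts of single lines. The pooled and difference fits and the other alternatives were not.

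Same-numbered libraries of the kdrl line correlated at 0.475, 0.128 and 0.422 in their deviations from the group means across genes. The number was therefore taken to pair them, and blocked values stand where they change a call. The second pair was weak, below the 0.138 of the third positive and second negative libraries of the acta2 line. Calls that need the block carry that limit. Members and lists were chosen with earlier results of these data known. Values of every library are given for members called in any comparison, and for the member with the largest mean value in a subfamily without a call, while related genes and markers were named at most 4 a list, smallest adjusted p first. Other members named with their values were chosen after these were seen. All 39 members matched the RefSeq table, used for names, overlaps and neighbours only because its build, GRCz12tu, is not that of the files. The reads carry no molecular identifiers, so read numbers cover counting error only.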

Additional observations from a re-analysis of the deposited data

Results flagged for a closer look

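The sort effect differed between the acta2 and kdrl lines for 8 members, by a test of the difference itself in a fit across all genes. The difference, positive minus negative in the acta2 line minus the same in the kdrl line, was -5.29 for sox21b, -4.09 for sox2ot, -4.04 for sox2, -3.73 for sox19b, -3.42 for sox3 and -2.9 for sox13, and 4.33 for tbx15 and 2.17 for sox5, all on the log2 scale. For sox2, sox21b, sox13, sox5 and tbx15 the call held in each of 8 other settings and without each of the 12 libraries. sox19b lost it under quantile normalization and sox3 under quantile normalization and in edgeR, and they lost it in 7 and 8 of the 12 fits that leave out 1 library, with adjusted p up to 0.0885 for sox19b and 0.0891 for sox3 over all settings, and sox2ot lost it without the first acta2 negative, the second kdrl positive, and the first or second kdrl negative library, with limma adjusted p up to 0.0622. Stage, fixation and library kit differ between these lines as well and cannot be told apart from the cell type.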

How the results depend on the processing

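The number of members called was recomputed under each alternative. In the acta2 line it was 10, against 15 with DESeq2, 14 with library weights and 5 in a single fit over both mural lines. In the acta2/foxc1b line it was 0, but 12 with DESeq2, 10 with library weights, 9 in the fit over both mural lines and 1, tbx15, with the replicate block (adjusted p = 0.0329). In the kdrl line it was 5 with the block and 2 without. For the acta2 minus kdrl difference it was 8, and 13 with DESeq2, and for the acta2/foxc1b minus acta2 difference 0, and 1 with DESeq2. Leaving out 1 library at a time, which also leaves fewer samples, gave 2 to 9 members in the acta2 line, 0 to 3 in the acta2/foxc1b line, 0 to 3 in the kdrl line, 11 to 17 in the pooled mural sorts and 5 to 9 for the acta2 minus kdrl difference. For the other alternatives the cause was not tested. No called member changed direction under any alternative run.

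Same-numbered libraries correlated at 0.00968, -0.0225 and -0.0137 in the acta2 line and at 0.144 and 0.0559 in the acta2/foxc1b line. There the number was not taken to pair the libraries. The block left 8 members called in the acta2 line, without sox5 and tbx15, and 11 in the pool, without sox6 and sox13.

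Over all genes, the acta2 line had 1441 calls, against 2941 with DESeq2, 2924 with library weights and 220 in the fit over both mural lines. The acta2/foxc1b line had 6 calls, against 12 with pseudocount 8, 11 without the filter, 94 with quantile scaling, 29 with TMM, 0 with edgeR, 1692 with DESeq2, 1251 with library weights, 280 with the block and 938 in the fit over both mural lines; 100% of the 6 were higher, against 57.4% with quantile scaling and 82.8% with TMM. The kdrl line had 1485, against 3203 with DESeq2 and 3359 with the block. The pool had 2056, against 3826 with DESeq2, 4928 with library weights and 1064 with the block. The acta2 minus kdrl difference had 1558, against 3106 with DESeq2, and the acta2/foxc1b minus acta2 difference 0, against 239 with DESeq2, 71 with library weights and 15 with quantile scaling. Quantile scaling moved the median log2 fold change of all genes to 0.07, against -0.06, in the acta2 line, to 0.04, against -0.11, in the acta2/foxc1b line and to 0.06, against -0.10, in the pool. Depth limits the size of changes that rest on a few reads, as for sox21b, sox1a and sox14.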
